A study of Mus musculus with 6 samples.

Results

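The imprinted Dlk1-Dio3 region of mouse chromosome 12 is one of the largest miRNA clusters of mammals, and 6 of its miRNAs gave a threshold cycle (Ct) in serum exosomes. They are miR-127, miR-136, miR-379, miR-329, miR-495 and miR-485, chosen by name among the 380 named miRNAs of a quantitative PCR panel, of which 123 had a Ct in every sample. Exosomes are small vesicles released by cells into body fluids. They were taken from serum of mice 2 weeks after ACLT, taken to mean that the anterior cruciate ligament had been cut, which makes the knee unstable and leads to osteoarthritis. One group of 3 samples came from mice given vehicle and the other group of 3 from mice given OCExoInhib, and all mice had ACLT. OCExoInhib is not spelled out in the labels, and from the known study it is an inhibitor of exosome release aimed at osteoclasts, the cells that resorb bone. The sources used here do not give strain, sex, age or dose. The design text speaks of exosomal miRNA from 3 mice per group being pooled, so the 3 samples of a group may be separate mice or repeated runs of one pool, and every p-value below rests on a spread that may be technical.

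In the Dlk1-Dio3 region the chromosome inherited from the father makes proteins, among them Dlk1, the retrotransposon-derived Rtl1 and the thyroid hormone deiodinase Dio3, and the chromosome inherited from the mother makes long noncoding RNAs from which the miRNAs are cut. miR-127 and miR-136 come from the maternal transcript that runs antisense to Rtl1, pair perfectly with the Rtl1 mRNA and direct its cleavage. miR-379, miR-329, miR-495 and miR-485 belong to the large downstream group from miR-379 to miR-410, called the Mirg group here, which is best known from brain and from muscle and the placenta.

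A miRNA finds its targets mainly through its seed, bases 2 to 8 from its 5′ end, so the sequences are shown with the seed in capitals to let the 6 be compared. Each panel sequence was found in exactly 1 mouse hairpin of RefSeq (GRCm38.p6), in genome order as follows.
miR-127: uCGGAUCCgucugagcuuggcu
miR-136: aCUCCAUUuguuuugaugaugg
miR-379: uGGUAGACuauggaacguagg
miR-329: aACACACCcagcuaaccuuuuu
miR-495: aAACAAACauggugcacuucuu
miR-485: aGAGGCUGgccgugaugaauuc

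The 6 seeds are all different. Among the other panel miRNAs only miR-362-3p shares one, that of miR-329, and it had no Ct in any sample. The panel names carry no arm, and by their sequences the assays for miR-127, miR-329 and miR-495 are to the 3p arm, and those for miR-136 and miR-379 to the 5p arm. The miR-485 sequence lies in the 5′ part of its hairpin, and no RefSeq mature entry in the table matched it. GC content ran from 36.4% for miR-136 and miR-495 to 59.1% for miR-127.

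The results turn on miR-127 and miR-379, so their hairpins are printed with the measured strand in capitals. The miR-127 hairpin lies at chr12:109592846-109592915 (plus strand), inside the RefSeq span of Rtl1, and overlaps the noncoding 6430411K18Rik, also known as PEG11as, at its edge. That of miR-379 lies at chr12:109709060-109709125 (plus strand), where the gene table lists no other gene.
miR-127 hairpin: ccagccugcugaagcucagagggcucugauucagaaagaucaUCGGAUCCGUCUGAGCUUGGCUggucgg
miR-379 hairpin: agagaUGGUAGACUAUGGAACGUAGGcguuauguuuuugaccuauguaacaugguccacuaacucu

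The other hairpins were also on the plus strand. The miR-136 hairpin, at chr12:109595327-109595388, lies 2411 bases beyond that of miR-127, again inside the Rtl1 span, and Mir3071 is annotated over it. The hairpins of miR-329 (chr12:109713481-109713577), miR-495 (chr12:109718754-109718816) and miR-485 (chr12:109734902-109734974) follow that of miR-379, which begins 113671 bases after the end of the miR-136 hairpin. From the first base of the miR-127 hairpin to the last of the miR-485 hairpin the 6 span 142129 bases.

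Most Dlk1-Dio3 miRNAs on the panel had no listed Ct. Of 53 panel entries on a list of the cluster, 6 (11.3%) had a Ct in all samples and 47 had none in any, against 32.4% of all 380 named miRNAs with a Ct. The sequences of 50 of these entries were found in a RefSeq hairpin on chromosome 12, which makes 42 hairpins. In the Rtl1 antisense group 2 of 6 entries had a Ct, and those without were miR-431, miR-433 and both arms of miR-434, whose hairpin sits between those of miR-127 and miR-136. In the Mirg group 4 of 39 had a Ct. Between the hairpins of miR-379 and miR-485 lie 23 further panel entries, of which 21 had no Ct and the other 2 are miR-329 and miR-495. A missing Ct means that no cycle is listed within the 40 cycles of the run. The sources used here do not say how such wells were set. Of the 380 named wells, 0 had a Ct in only some of the samples. Whether a missing Ct stands for a low level or for a rule applied to the wells was not tested.

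**Figure D1:**
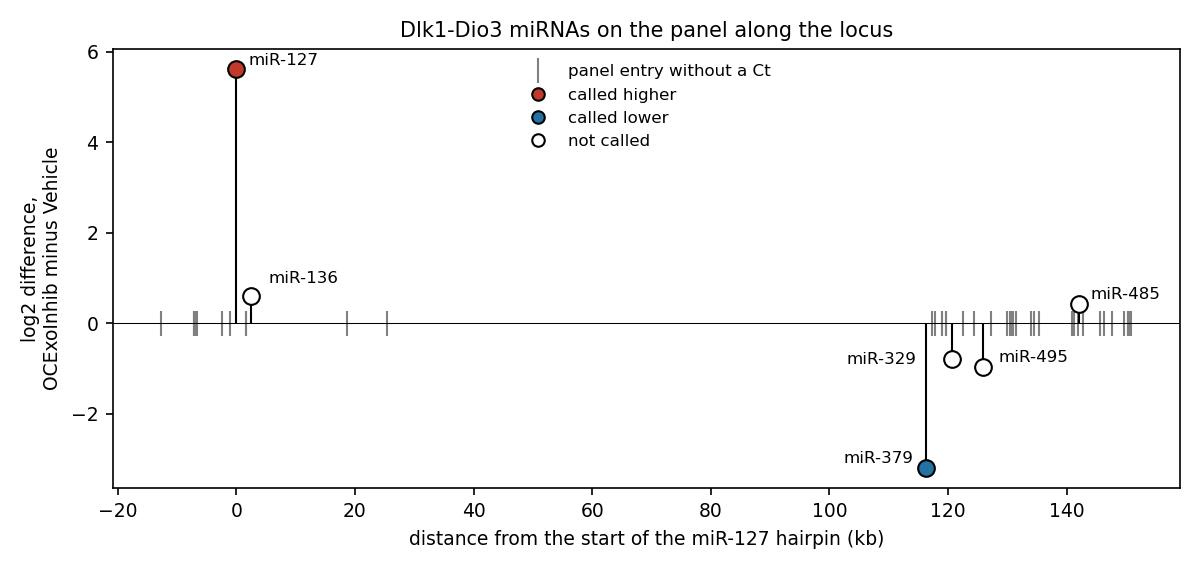
Dlk1-Dio3 miRNAs of the panel by the distance of their hairpin from the start of the miR-127 hairpin (kb, x axis). Circles give the log2 difference OCExoInhib minus Vehicle (y axis) of the 6 miRNAs with a Ct, filled where called, and grey ticks mark entries without a Ct. miR-127 stands at 5.61 and its neighbour miR-136 at 0.60, and the 4 downstream miRNAs run from −3.19 for miR-379 to 0.43 for miR-485.

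The values below are on a raw and on a log2 scale, and neither compares the amounts of different miRNAs, since assays differ in efficiency. On the raw scale an earlier Ct means more template, by about 1 doubling for each cycle. On the log2 scale the level of a miRNA is the mean Ct of the wells P21 to P23 minus its own Ct. These wells set the authors' normalization, headed as Ct differences from a spike-in control, and their RNA is not named. The mean Ct of these wells was 30.9 in Vehicle and 30.2 in OCExoInhib samples, a difference of -0.725 cycles with an exact permutation p (two-sided) of 0.2, and this shift enters each log2 difference below. A miRNA was called when its adjusted p from limma, fitted over 115 tested miRNAs, was under 0.05. Of these 115, 7 (6.09%) were called higher and 20 (17.4%) lower in OCExoInhib samples, in all 27 (23.5%), and 2 of the 6 Dlk1-Dio3 miRNAs were called, 1 in each direction. All 6 passed the filter on late cycles (Ct under 35 in at least 3 of 6 samples), miR-127 on its 3 OCExoInhib values, the group where it is high, and 1 Vehicle value. The count is read against the 23.5% of all tested miRNAs and says nothing particular of the cluster. With each sample centred on its median in place of the wells, 57 of all tested miRNAs were called higher and 11 lower, and 3 of the 6 higher and 0 lower.

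The clearest difference among the 6 was that of miR-127, which rose. It is known for cutting the Rtl1 mRNA, which it matches in full, and for repressing the transcription factor Bcl6. Its raw Ct was 34.736, 35.904 and 36.802 in Vehicle samples 1, 2 and 3, and 28.747, 29.943 and 29.742 in OCExoInhib samples 1, 2 and 3. Every OCExoInhib sample thus crossed the threshold well before every Vehicle sample, and the groups did not overlap. The Vehicle values lie at the edge of what the assay measures: 2 of the 3 were at Ct 35 or later, where few template molecules are left. Over the 6 miRNAs, 2 of 18 Vehicle and 0 of 18 OCExoInhib values were that late. Among all miRNAs with a Ct the shares were 11.7% in Vehicle and 7.05% in OCExoInhib samples.

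On the log2 scale miR-127 stood at −4.90 ± 1.01 in Vehicle and 0.72 ± 0.87 in OCExoInhib (SD, n = 3 samples each). This rise was one of 5.61 (SE 0.82, 95% interval 3.86 to 7.36), or 48.9-fold, with a limma adjusted p of 7.56e-05. With the late Vehicle values set to Ct 35 the rise was 4.71, or 26.2-fold, with a limma adjusted p of 0.000126. The authors' deposited table gives a Vehicle over OCExoInhib fold of 0.02 for it. The raw Ct fell by 6.34 cycles, for which the exact permutation p (two-sided) was 0.1, the smallest that 3 samples against 3 can give. Its rise ranked 6 of 115 and lay 6.15 above the median difference of all tested miRNAs, which was −0.54. The 7 miRNAs called higher, miR-127 among them, all had mean log2 levels of −6.02 to −4.40 in Vehicle samples. In OCExoInhib samples their means were 0.27 to 0.87, so a rise of this shape is not particular to miR-127.

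**Figure D2:**
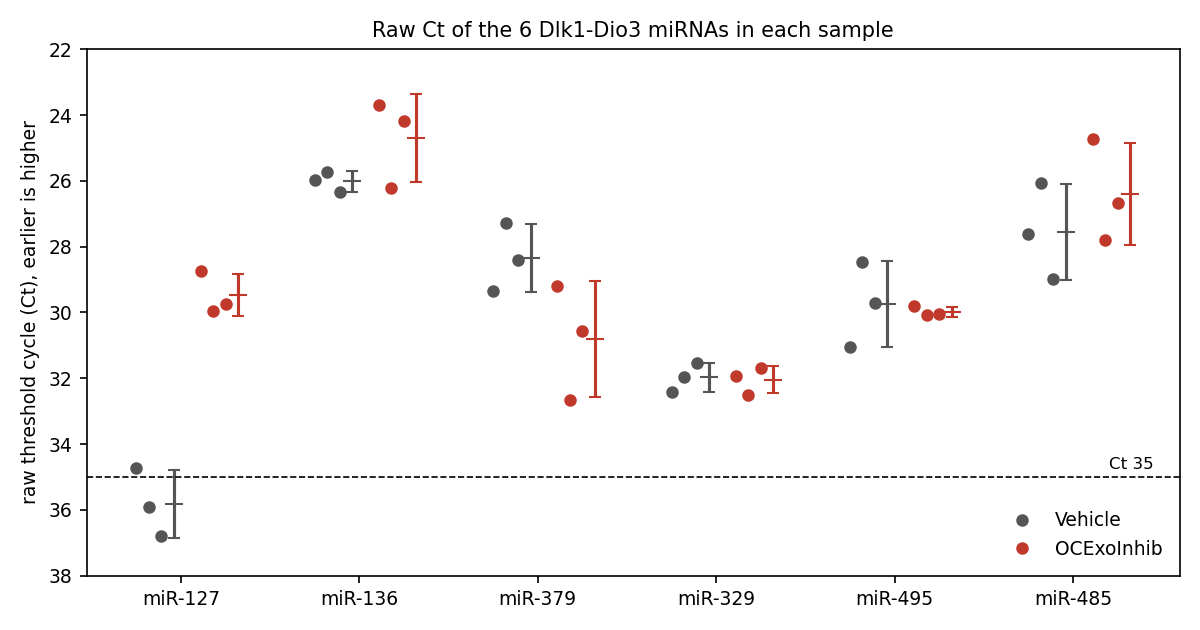
Raw Ct (y axis, turned so that higher levels are up) of the 6 miRNAs in each Vehicle and OCExoInhib sample, with samples 1, 2 and 3 from left to right in each group and the mean ± SD (n = 3) beside them. The dashed line is Ct 35. miR-127 moved from between 34.736 and 36.802 to between 28.747 and 29.943, and for the other 5 miRNAs the groups overlap.

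miR-136, the other miRNA cut from the Rtl1 antisense transcript, did not pass. It had the earliest cycles of the 6, at Ct 25.969, 25.717 and 26.353 in Vehicle and 23.684, 26.211 and 24.177 in OCExoInhib samples. OCExoInhib samples 1 and 3 were earlier than all Vehicle samples, and sample 2 lay among them. Its log2 difference was 0.60 (SE 0.80, 95% interval −1.10 to 2.29, limma adjusted p 0.866). The 3 Vehicle samples were close, with an SD of 0.103 on the log2 scale against a median of 0.879 over all tested miRNAs in that group, and the OCExoInhib samples had an SD of 1.13.

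miR-379 opens the Mirg group and has given its name to the miR-379 to miR-410 cluster. Its Ct was 29.342, 27.267 and 28.403 in Vehicle and 29.185, 32.665 and 30.562 in OCExoInhib samples. On this raw scale the groups overlapped, since OCExoInhib sample 1 was earlier than Vehicle sample 1, and for the mean difference of 2.47 cycles the exact permutation p (two-sided) was 0.2.

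Relative to the wells the groups of miR-379 separated, with log2 levels of 1.651, 3.302 and 2.789 in Vehicle and 1.165, −2.037 and −0.960 in OCExoInhib samples. The gap between Vehicle sample 1 and OCExoInhib sample 1 was small beside the spread within the OCExoInhib group, whose SD was 1.63. miR-379 fell by 3.19 on the log2 scale (SE 0.90, 95% interval −5.11 to −1.27, limma adjusted p 0.0133), and 9.135 is its fold of Vehicle over OCExoInhib in the authors' deposited table. Taken relative to the median of all tested miRNAs the difference was −2.65. The call was lost with every other normalization tried: the limma adjusted p was 0.155 on raw Ct, 0.143 with the global mean, 0.425 with quantile normalization, 0.0516 with median of ratios and 0.465 with median centring, and the difference was below 0 in each. It was also lost without OCExoInhib sample 2, where miR-379 was lowest (−2.48, limma adjusted p 0.0750), and without OCExoInhib sample 3 (−3.02, limma adjusted p 0.0546), and it was −4.08 without OCExoInhib sample 1.

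A further property sets the miR-379 values apart. Its Ct in Vehicle sample 1 minus that in Vehicle sample 3 was 0.939, and 16 other miRNAs had the same difference to within 0.0015 cycles. Such a repeat, shared with at least 4 other miRNAs, was found for none of the other 5 Dlk1-Dio3 miRNAs in any pair of samples of a group. Of all 115 tested miRNAs 23 carried one, and 22 of these were called, among them 19 of the 20 called lower. With Vehicle samples 1 and 3 averaged and counted once, miR-379 stood at −3.37 (limma adjusted p 0.0351). The part of the repeat in the call was not tested.

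Summed levels of markers of other sources of serum RNA are set beside the fall of miR-379. The level of a list was taken as the sum of its measured miRNAs, each relative to the wells. The 3 muscle miRNAs with a Ct summed to between 7.73 and 9.20 in Vehicle and between 1.92 and 3.36 in OCExoInhib samples, with 2 of 5 muscle entries, miR-1 and miR-133b, without a Ct. For red cells 2 of 4 entries had a Ct, with sums of 26.8 to 156 in Vehicle and 6.72 to 25.2 in OCExoInhib samples, and the red cell miRNAs miR-451 and miR-486 had none. For platelets 2 of 3 entries had a Ct, with sums of 13.5 to 54.7 in Vehicle and 0.735 to 1.48 in OCExoInhib samples. Of these only miR-21 was tested, since miR-223 did not pass the filter on late cycles. In the muscle, red cell, platelet and liver lists 1 miRNA each was called lower, miR-133a, miR-16, miR-21 and miR-194, of 3, 2, 1 and 2 tested. All 4 carry a repeated Ct difference. Over all 115 tested miRNAs 20 (17.4%) were called lower, and for 30 (26.1%) the log2 levels of the groups did not overlap. With so few tested per list, these counts are not read as a result about the sources. Mean log2 levels went from 2.41 in Vehicle to −0.41 in OCExoInhib for miR-133a, 5.32 to −0.09 for miR-16 and 4.80 to −0.07 for miR-21. For the red cell miR-144 they went from 4.05 to 3.49. The muscle, red cell and platelet sums thus follow mainly 1 miRNA each and do not show a fall of the whole list. The other tested members of these lists, and the tested leukocyte and brain members, did not pass the limma test. Sums overlapped between groups for liver (46.3 to 177 in Vehicle, 24.4 to 84.2 in OCExoInhib, no Ct for miR-122) and for leukocytes (12.3 to 47.9 and 12.7 to 35.4, no Ct for miR-142 or miR-155). The part of these sources in the fall of miR-379 was not tested, and in bulk serum fewer vesicles of a source and less RNA per vesicle cannot be told apart. Brain, a tissue where this cluster is known to be active, showed overlapping sums over 3 of 6 entries, 11.0 to 32.6 in Vehicle and 12.8 to 35.01 in OCExoInhib samples, and miR-9, miR-124 and miR-138 had no Ct. The panel held no test of exosome markers, which are proteins.

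miR-329 is known from neurons, where its cluster takes part in the growth of dendrites that follows activity. Its Ct was 32.416, 31.957 and 31.543 in Vehicle and 31.919, 32.506 and 31.700 in OCExoInhib samples, and the groups overlapped. Relative to the wells the 3 OCExoInhib samples lay below the 3 Vehicle samples, a separation found for 30 of the 115 tested miRNAs (26.1%), against 29 (25.2%) on raw Ct. The log2 difference was −0.79 (SE 0.75, 95% interval −2.39 to 0.80, limma adjusted p 0.866). It turned to 0.38 with the global mean and to 1.73 with median centring, so no direction is given for it.

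miR-495, known to target the mRNA of the neuronal growth factor Bdnf, lies between miR-329 and miR-485 in the genome. Its Ct was 31.059, 28.467 and 29.706 in Vehicle and 29.818, 30.084 and 30.048 in OCExoInhib samples. All OCExoInhib samples lay within the Vehicle range, and their SD was 0.144 cycles against 1.30 in Vehicle samples. The log2 difference was −0.96 (SE 0.81, 95% interval −2.69 to 0.76, limma adjusted p 0.866), and it turned to 0.21 with the global mean, 0.65 with quantile normalization and 1.56 with median centring.

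miR-485 is known for its part in synapses, where it restrains the vesicle protein SV2A. Its Ct was 27.615, 26.066 and 28.973 in Vehicle and 24.724, 27.788 and 26.670 in OCExoInhib samples, and the groups overlapped widely. It had the largest spread of the 6 in Vehicle samples, with an SD of 1.45 cycles there and 1.55 in OCExoInhib samples. The log2 difference was 0.43 (SE 0.92, 95% interval −1.53 to 2.40, limma adjusted p 0.866). Leaving out Vehicle sample 3 turned it to −0.14, and leaving out OCExoInhib sample 1 to −0.48.

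The 4 miRNAs that did not pass had intervals that include changes of over 1 on the log2 scale in at least 1 direction, so differences of that size could not be told from the spread between these samples. Over the 6 miRNAs the median log2 difference was −0.18, with 3 above 0 and 3 below, beside −0.54 over all tested miRNAs, with 24 above 0 and 91 below. Without normalization these medians were 0.54 and 0.18, with the global mean 1.00 and 0.64, with quantile normalization 1.10 and 0.20, with median of ratios 0.43 and 0.07, and with median centring 2.35 and 1.98.

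**Figure D3:**
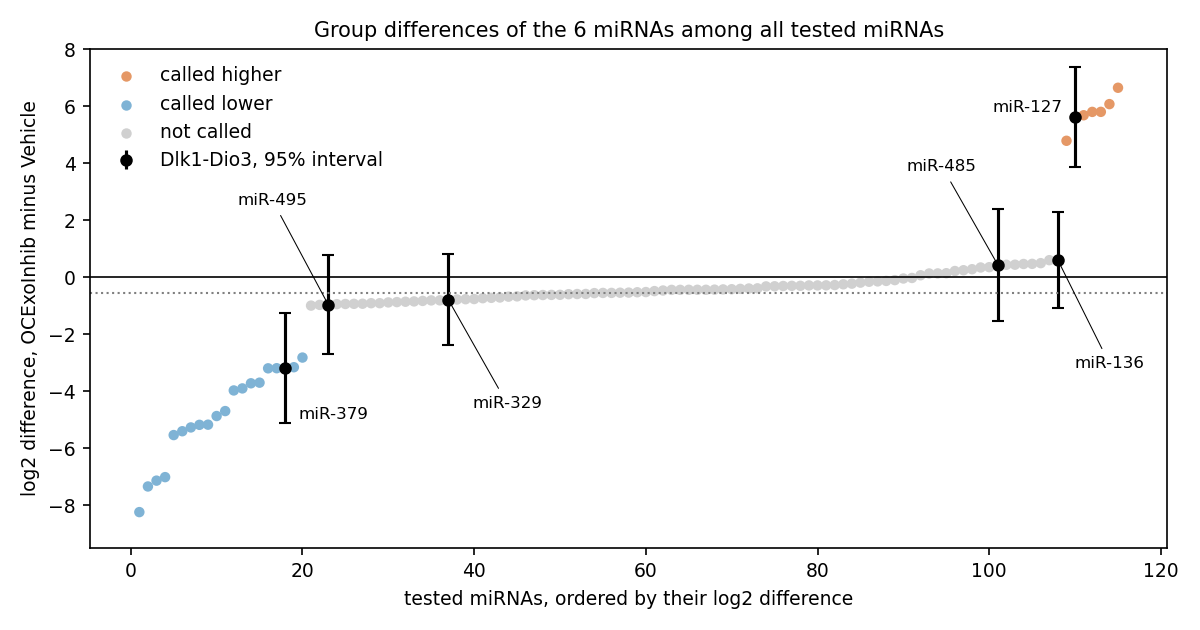
Log2 difference OCExoInhib minus Vehicle (y axis) of all 115 tested miRNAs in order (x axis), coloured by call. The 6 Dlk1-Dio3 miRNAs are black with their 95% intervals, and the dotted line is the median of all, −0.54. miR-127 lies among the 7 called higher and miR-379 among the 20 called lower.

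**Figure D4:**
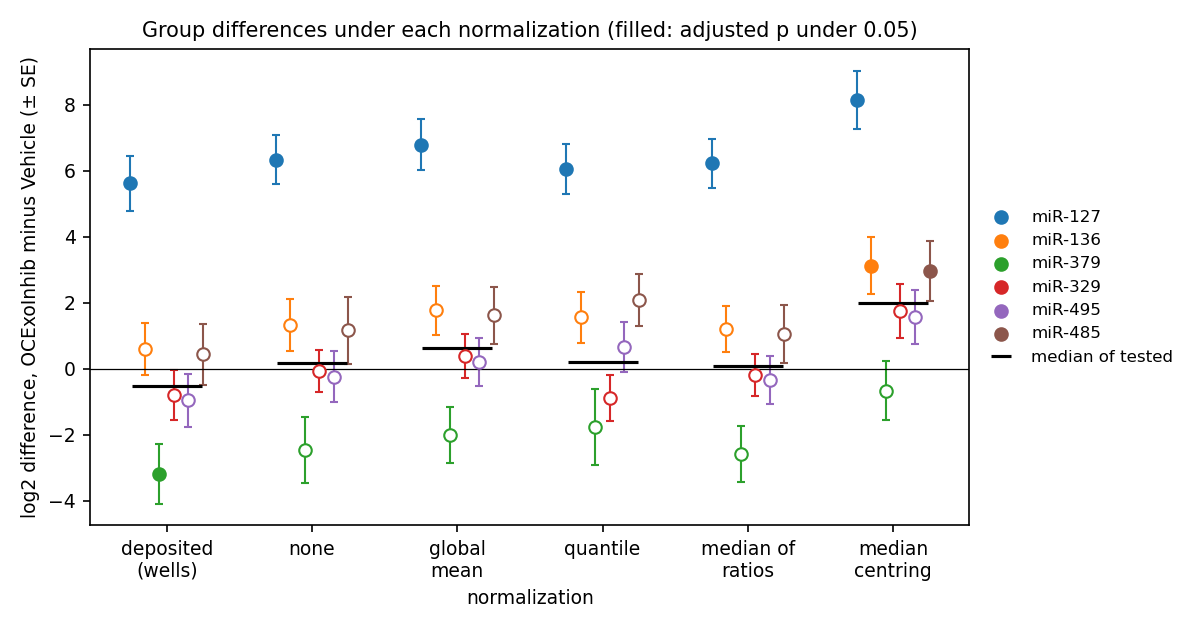
Log2 difference ± SE (y axis) of the 6 miRNAs under 6 normalizations (x axis), filled where the limma adjusted p was under 0.05, with black bars for the median of all tested miRNAs. miR-127 is filled under all 6, at 5.61 to 8.14, miR-379 is filled under the deposited normalization alone, and miR-136 and miR-485 are filled under median centring alone.

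In Vehicle samples the order of mean Ct, from early to late, was miR-136 (26.0), miR-485 (27.6), miR-379 (28.3), miR-495 (29.7), miR-329 (31.97) and miR-127 (35.8). Neighbours in this order overlapped from miR-136 to miR-495, while miR-495 and miR-329, and miR-329 and miR-127, did not. In OCExoInhib samples miR-127 stood at rank 3, at a mean Ct of 29.5, after miR-136 (24.7) and miR-485 (26.4) and before miR-495 (30.0), miR-379 (30.8) and miR-329 (32.04). There only miR-485 and miR-127 did not overlap as neighbours.

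Comparing the 6 with one another inside each sample removes the choice of normalizer. For a pair, the Ct of one miRNA minus that of the other was taken in each sample and compared between groups, for all 15 pairs. Relative to miR-136, its neighbour in the Rtl1 antisense transcript, miR-127 went from −9.80 ± 0.905 in Vehicle to −4.79 ± 0.947 in OCExoInhib samples (SD, n = 3 samples each), a gain of 5.01 on the log2 scale. Relative to miR-329 it gained 6.41, to miR-495 6.58, to miR-485 5.18 and to miR-379 8.80. These gains rest on its late Vehicle values. With those set to Ct 35 they were 4.11 relative to miR-136, 5.50 to miR-329, 5.67 to miR-495, 4.28 to miR-485 and 7.90 to miR-379. In each of these 5 pairs the groups did not overlap, with an exact permutation p (two-sided) of 0.1, and 0.167 after adjustment over the 15 pairs.

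The same held for the 4 other pairs with miR-379. Against miR-485, at the far end of the measured Mirg miRNAs, miR-379 went from −0.79 ± 1.20 to −4.41 ± 0.494 (SD, n = 3 each), a difference of −3.62. Against miR-329 the difference was −2.40 and against miR-495 −2.23, and miR-136 gained 3.79 relative to miR-379 (exact p 0.1 and adjusted 0.167 for each). These pairs use the same Ct values as the calls and share members, so they are no separate support, but they do not depend on the wells. How often pairs of other tested miRNAs separate the groups was not measured. Single miRNAs did so on raw Ct for 25.2% of all tested, but a share of single miRNAs is no measure for pairs. Without a share for other pairs, the pairs are not read as a result about the cluster. Among the remaining 6 pairs, made of miR-136, miR-329, miR-495 and miR-485, the groups overlapped and the differences ran from −1.40 to 1.56, with exact p between 0.2 and 1.

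**Figure D5:**
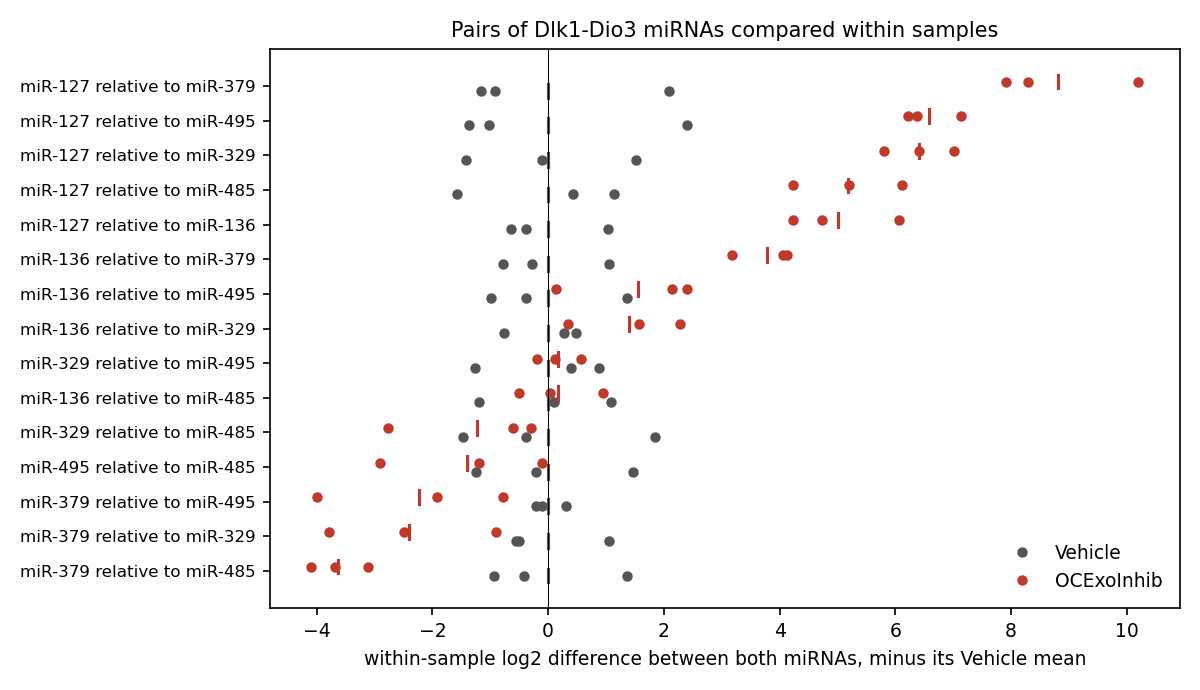
For each of the 15 pairs (y axis), the within-sample log2 difference between both miRNAs in every sample (x axis, as the Ct of the second minus the Ct of the first, less the Vehicle mean), with vertical bars for group means. All pairs with miR-127 or miR-379, the called miRNAs, separate the groups, and the 6 pairs without them overlap. The share among pairs of other tested miRNAs was not measured.

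The profile of miR-127 over the 6 samples was most like those of miR-29c and miR-28. Likeness was the root mean square difference of log2 levels, each miRNA centred on its own mean, which was 0.727 to miR-29c and 0.928 to miR-28, against a median of 3.26 to the 114 other tested miRNAs. The measure spans both groups, so a miRNA with a large group difference lies near others with a like one by construction. The log2 differences between groups were 5.68 for miR-29c and 5.80 for miR-28, and miR-29c carries a repeated Ct difference. miR-379 was most like let-7a (0.771) and miR-340-3p (0.806), with a median of 1.82 to all, and both carry a repeated Ct difference.

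No Dlk1-Dio3 miRNA was among the nearest 2 profiles of another. The members are few among the 114 miRNAs compared with each, so this says nothing particular of the cluster. miR-136 was nearest to miR-125a-3p (0.362) and miR-200b (0.460), miR-329 to miR-449b (0.195) and miR-199a-3p (0.210), miR-495 to miR-467c (0.328) and miR-96 (0.458), and miR-485 to miR-465a-5p (0.428) and miR-465b-5p (0.664), the last of which carries a repeated Ct difference. The measure describes these 6 samples, which share the wells used to normalize them.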

How the data were processed

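Per the labels' protocols, exosomal RNA was column-purified, reverse transcribed and profiled by SYBR Green PCR on a ViiA7 machine (40 cycles). The deposited raw threshold cycles, treated as a score, run lower for higher levels. The sources used here do not give the fluorescence threshold. The authors' normalized values, also deposited, are log2 values, per the file headers as Ct differences from a spike-in control, and they equalled the raw Ct minus the mean of wells P21 to P23 in every sample. The authors' deposited fold ratio is Vehicle over OCExoInhib. The tables held 0 columns of other samples.

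Tested were 115 named miRNAs, those under Ct 35 in 3 or more of the 6 samples, which all 6 Dlk1-Dio3 miRNAs passed, miR-127 through its OCExoInhib values and 1 Vehicle value. The fit used limma 3.58.1 (R 4.3.3; lmFit, eBayes, two-sided), p-values adjusted by Benjamini-Hochberg over the 115, and a threshold of 0.05, and single values used exact permutation tests (scipy 1.17.1, Python 3.11.15). The fit was tested on simulated data. The number of samples and the cycle limit the precision. Named miRNAs are the 6 and the 2 nearest profiles of each, and markers and unmeasured cluster entries appear as examples. The miRNAs and lists were chosen with earlier results of these data known. Sequences came from RefSeq tables (GRCm38.p6). For samples sharing a number, deviations from the group mean had correlations of 0.0587, 0.0177 and 0.117, so they were not paired. Alternatives were other normalizations, late-cycle rules, variance models, the sample number as a block, merged Vehicle samples and each sample left out.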

Additional observations from a re-analysis of the deposited data

How the results depend on the processing

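The rise of miR-127 kept its direction and its call in the 19 alternatives that could test it. Its log2 differences were 4.71 to 8.14, and 5.17 to 6.19 with samples left out. The highest adjusted p, 0.0344, was that of the unmoderated equal-variance test, and the limma adjusted p of the other alternatives ran up to 0.00840. Requiring Ct under 35 in all samples, or setting later values to missing, removed miR-127 itself. miR-379 stayed below 0 in all 20 alternatives and lost its call in 9: −2.47 on raw Ct, −2.01 with the global mean, −1.76 with quantile normalization, −0.67 with median centring, −2.58 with median of ratios, −3.19 in the unmoderated test (adjusted p 0.175) and −3.19 with the sample number as a replicate block (adjusted p 0.211), and in 2 of the 6 fits with a sample left out (range −4.08 to −2.48). With the replicate block 1 Dlk1-Dio3 miRNA and 25 miRNAs in all were called.

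Calls among the 6 numbered 1 on raw Ct, with the global mean, quantile normalization, median of ratios, both rules that drop late values, the unmoderated test and without repeated Ct differences, and 1 to 2 with samples left out. With median centring they numbered 3, adding miR-136 (3.12) and miR-485 (2.96), while miR-329 turned to 1.73 and miR-495 to 1.56. The other reversals were miR-329 at 0.38 and miR-495 at 0.21 with the global mean, miR-495 at 0.65 with quantile normalization, and, with samples left out, miR-485 (−0.48 to 1.00), miR-136 relative to miR-485 (−0.43 to 0.71) and miR-329 relative to miR-495 (−0.46 to 0.61). Over all miRNAs 16 (9 lower) were called with quantile normalization, 68 (57 higher, 11 lower) with median centring, 15 (4 higher, 11 lower) in the unmoderated test, 5 (4 higher, 1 lower) without repeats, and 0 higher under either rule that drops late values, and 24 to 27 with samples left out. The Vehicle values at a late cycle numbered 2 at Ct 35, 4 at Ct 32, 0 at Ct 38 and 1 to 2 with samples left out. The late-value rules leave out miR-127, and the repeat setting leaves out 22 called miRNAs, miR-379 among them. Otherwise the cause of these changes was not tested. Having 3 samples per group and late cycles limit what can be seen.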

Other observations

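Other imprinted miRNAs on the panel were mostly without a Ct as well, beside 32.4% of all named miRNAs with one. In the Sfmbt2 cluster of chromosome 2, a rodent-specific group active in the placenta, 5 of 40 entries had a Ct, namely miR-467a, miR-467b, miR-467c, miR-669a and miR-669b. All 5 were tested, 0 were called by limma, beside 23.5% of all tested miRNAs, and their median log2 difference was 0.13. With so few tested, this says nothing particular of imprinted miRNAs. Among 6 entries for miR-335, miR-296, miR-298 and miR-483, only miR-483, which lies in an intron of Igf2, had a Ct, and its log2 difference of −0.29 did not pass.

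Within the OCExoInhib group sample 1 had the highest log2 level for 5 of the 6 Dlk1-Dio3 miRNAs, all but miR-495, while it was the highest for 53 of all 115 tested miRNAs (46.1%). On raw Ct it was the earliest for 5 of the 6, all but miR-329, and for 49 of the 115 (42.6%). Within the Vehicle group sample 2 was earliest on raw Ct for 4 of the 6 and for 57 of the 115 (49.6%).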
